A study of Bos taurus with 3 samples.

Results

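The genes described here are 42 interferon-induced antiviral genes and their receptors and transcription factors, compared between fetal ovarian epithelial-like cells and adult ovarian fibroblasts. They were chosen by symbol from 59 names of the interferon response, with earlier results of these data known. Their counts beside those of all genes are therefore descriptions and no test. A name was kept where the array carried a probe set annotated with that symbol alone, which left out 17 names, and the 42 are among 9155 genes with such a probe set. The probe set with the highest mean over the arrays stood for a gene, and other probe sets are reported beside it. RNA from 3 bovine cultures was hybridized to 3′ expression arrays (GeneChip Bovine Genome Array), 1 array per culture. Gonadal Ridge Epithelial-Like (GREL) cells, polygonal cells that the study describes as clonally enriched isolates, came from the ovaries of fetuses labelled as 130 days of gestation (isolates 1 and 2), although the study's methods put the fetus of isolate 1 slightly younger. The fibroblasts were 1 culture of medullar stroma from an ovary of an adult (labelled as older than 1 year). All cultures were dispersed with collagenase, at a higher concentration for the adult stroma, and grown in the same kind of medium with fetal calf serum. The confluence before harvest is stated for the fetal cultures only. No virus or interferon treatment is described for any group. Fetal against adult, epithelial-like against stromal, 1 donor against another and this handling therefore differ together between the groups and cannot be told apart.

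Type I interferons are secreted by cells that sense viral nucleic acid. They bind a receptor made of IFNAR1 and IFNAR2, and its kinases activate STAT2, which joins IRF9 within the factor ISGF3. ISGF3 enters the nucleus and switches on a large group of genes whose products block viruses at entry, transcription, translation or release, and many of these genes are also kept at a low basal level in cultured cells without infection.

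Expression is given as the deposited log2 value, on which a step of 1 is a doubling, and differences are GREL minus fibroblasts. A gene was counted as different where both isolates departed from the fibroblast array by more than 3-fold in the same direction, which is 1.58 on the log2 scale. The deposited values carry no detection calls, so a background level was taken from 55 genes of other organs, as the 90th percentile of their values on each array. It was 5.38 in the fibroblasts, 5.88 in isolate 1 and 5.72 in isolate 2. Genes below this level may still be expressed, but the sizes of their differences are uncertain. In bulk RNA of this kind, fewer expressing cells and less RNA per cell cannot be told apart.

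Markers of the labelled cell types were read on the same arrays. Of 10 markers of GREL cells and simple epithelium 4 were over 3-fold higher in both isolates (KRT19, KRT7, PKP2 and STAR). These 4 are on the study's own list of genes over 3-fold higher in GREL cells, drawn from these same arrays. Their passing was therefore fixed in advance and is no check of the cell types. Of 12 stromal markers 2 were over 3-fold lower (TCF21 and PDGFRA). The epithelial keratin KRT19 read 7.1 in the fibroblasts, 11.3 in isolate 1 and 11.6 in isolate 2, and the stromal factor TCF21 read 7.4 in the fibroblasts, 3.4 in isolate 1 and 3.2 in isolate 2. The gonadal factor NR5A1, listed for GREL cells, went against the list at 5.6 in the fibroblasts, 4.4 in isolate 1 and 4.3 in isolate 2. FOXL2 was below the background level on every array, and so was KRT7, at 2.3 in the fibroblasts, 4.4 in isolate 1 and 4.9 in isolate 2. Of the stromal list COL1A2, COL3A1 and DCN were at 10.1 or above on all 3 arrays, though lower in both isolates than in the fibroblasts. COL1A1 read 9.7 in the fibroblasts, 8.7 in isolate 1 and 7.4 in isolate 2, and LUM 8.5, 7.1 and 5.8. The isolates also differed, with isolate 1 higher than isolate 2 in 10 of the 12 stromal markers. The gap between isolates was 1 log2 unit or more in 6 of the 12. By any amount 9 of the 12 stromal markers were lower in both isolates, beside 33.5% of all named genes, and 0 were higher in both. Of 14 measured leukocyte markers and 7 endothelial markers, 0 lay above the background level in any culture. The leukocyte markers, PTPRC among them, ranged from 1.0 to 2.7 in the fibroblasts, from 0.9 to 2.4 in isolate 1 and from 0.9 to 2.8 in isolate 2, and their summed value was 25.8, 24.4 and 28.0 in the same order.

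As a group the interferon-induced genes were lower in GREL cells than in the fibroblasts. Of the 42, 15 were over 3-fold lower in both isolates (35.7%) and 0 were over 3-fold higher. Over all 9155 named genes 2.38% were over 3-fold lower and 2.38% over 3-fold higher. The counting rule puts these 15 past 3-fold in each isolate by itself. Without isolate 1 no other gene of the 42 joined them, and 3.62% of all named genes were then past 3-fold. A further 22 of the 42 were lower in both isolates by less than 3-fold, TRIM21 and IFI35 were higher in both, and IRF7, TRIM25 and EIF2AK2 did not lie on 1 side of the fibroblast value in both. By any amount, 37 of the 42 were lower in both isolates (88.1%), beside 33.5% of all named genes, which is the share to read beside such counts in the lists by role. The median log2 difference was -1.18 for the 42 genes and 0.05 for all named genes, and it was -1.12 without the most different pair, IFI6 and IFI27. The fibroblast array was above the background level in 17 of the 42 genes and both isolates in 6 (IFIT5, IFI30, IRF3, IFITM1, LGALS3BP and NMI). Over all 9155 named genes these counts were 3408 and 2743, so the fibroblast share of the 42 is near that of all genes. None of the 42 passed limma over all 24016 probe sets with Benjamini-Hochberg adjustment, where 0% were called in either direction, and their adjusted p ranged from 0.182 to 0.899. At an unadjusted p under 0.05, 23 of the 42 were lower in limma, beside 11.1% of all probe sets, and 0 were higher, beside 9.8%. Each of the 42 is 1 bright probe set a gene, whereas all probe sets include 10638 without a symbol, so these shares are not like for like. The methods' test (one-way analysis of variance) likewise called 0 after adjustment, over the 20503 probe sets and 35 of the 42 genes it could test. At an unadjusted p under 0.05 the methods' test passed 6 of those 35 genes, and its share over all probe sets was not counted. The spread in both tests comes from the 2 isolates alone, since the fibroblasts have no replicate.

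**Figure D1:**
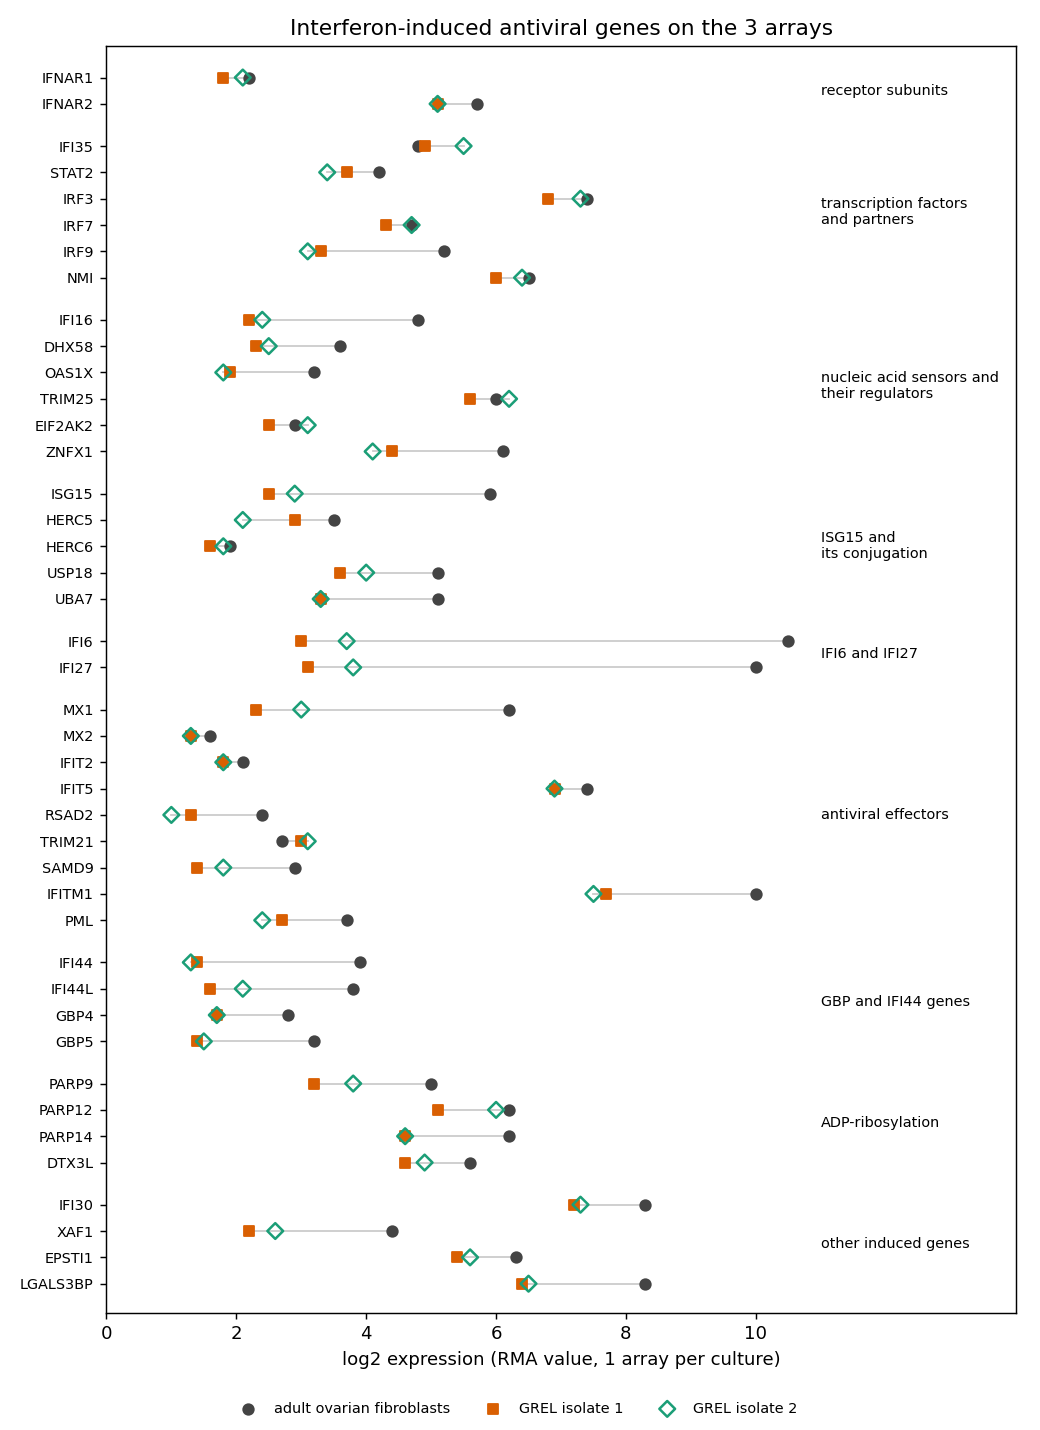
Log2 expression (horizontal axis, RMA value) of the 42 interferon-induced antiviral genes, grouped by role, with circles for adult ovarian fibroblasts, squares for GREL isolate 1 and open diamonds for isolate 2, 1 array per culture. The fibroblast value lies to the right of both isolates in 37 of the 42 genes, and the longest distances are those of IFI6 (10.5 against 3.0 and 3.7) and IFI27 (10.0 against 3.1 and 3.8).

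The receptor differed little. IFNAR1, the subunit that docks the kinase TYK2, read 2.2 in the fibroblasts, 1.8 in isolate 1 and 2.1 in isolate 2, all below the background level. IFNAR2, the subunit that first binds the interferon, read 5.7 in the fibroblasts and 5.1 in both isolates, a log2 difference of -0.60 (SE 0.03, limma adjusted p = 0.182). The isolates round to the same value in IFNAR2, so this standard error (SE) is smaller than the rounding step of 0.1.

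Of the transcription factors IRF9 alone passed 3-fold. IRF9, the DNA-binding partner of ISGF3, read 5.2 in the fibroblasts, 3.3 in isolate 1 and 3.1 in isolate 2, a log2 difference of -2.00 (SE 0.14, limma adjusted p = 0.184). STAT2, which pairs with it, read 4.2 in the fibroblasts, 3.7 in isolate 1 and 3.4 in isolate 2. Both isolates lay below the fibroblasts in these genes, and further in IRF9 than in STAT2, and all values were below the background level. IRF3, which is present before infection and switches on interferon genes after a sensor is triggered, read 7.4 in the fibroblasts, 6.8 in isolate 1 and 7.3 in isolate 2. IRF7, the interferon-induced factor that amplifies interferon production, was at 4.7 in the fibroblasts, 4.3 in isolate 1 and 4.7 in isolate 2. The STAT-binding protein NMI and its binding partner IFI35 had mean differences of -0.30 and 0.40. IRF1 was not analysed here.

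Sensors of foreign nucleic acid were split. IFI16, a DNA sensor, read 4.8 in the fibroblasts, 2.2 in isolate 1 and 2.4 in isolate 2, a log2 difference of -2.50 (SE 0.14). ZNFX1, an RNA helicase that detects viral RNA, read 6.1 in the fibroblasts, 4.4 in isolate 1 and 4.1 in isolate 2. In both genes the isolates lay close together and more than 3-fold below the fibroblasts. IFI16 was below the background level on every array. Against that level ZNFX1 was at least 1.16-fold (isolate 1) and 1.3-fold (isolate 2) higher in the fibroblasts. DHX58, a relative of the RNA sensor RIG-I that tunes its signal, read 3.6 in the fibroblasts, 2.3 in isolate 1 and 2.5 in isolate 2, and OAS1X, whose product makes the messenger that activates RNase L, was at 3.2 and at 1.9 and 1.8. EIF2AK2, the kinase PKR that stops translation on meeting double-stranded RNA, was at 2.9 in the fibroblasts and lay between the isolates at 2.5 and 3.1. TRIM25, the ubiquitin ligase that acts on RIG-I, was likewise between them, at 6.0 against 5.6 and 6.2. All values of DHX58, OAS1X and EIF2AK2 were below the background level. RIG-I (DDX58 or RIGI) and IFIH1 were not analysed here.

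ISG15 is a ubiquitin-like protein that is attached to other proteins during the interferon response. ISG15 itself read 5.9 in the fibroblasts, 2.5 in isolate 1 and 2.9 in isolate 2, a log2 difference of -3.20 (SE 0.28, limma adjusted p = 0.184), or 10.6-fold and 8-fold lower as measured. Both isolates were below the background level, and against that level ISG15 was at least 1.01-fold (isolate 1) and 1.13-fold (isolate 2) higher in the fibroblasts. UBA7, the enzyme that activates ISG15 for transfer, read 5.1 in the fibroblasts and 3.3 in both isolates. USP18, the protease that removes ISG15 and also blocks signalling at IFNAR2, read 5.1 in the fibroblasts, 3.6 in isolate 1 and 4.0 in isolate 2. HERC5, the ISG15 ligase known from human cells, read 3.5 in the fibroblasts, 2.9 in isolate 1 and 2.1 in isolate 2, a gap between isolates of 0.80. HERC6, the ISG15 ligase known from mouse, was at 1.9 and at 1.6 and 1.8. All 5 genes were lower in both isolates, 2 of them by over 3-fold (ISG15 and UBA7), and only ISG15 exceeded the background level on the fibroblast array.

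IFI6 and IFI27, small hydrophobic proteins of the same family, had the widest differences of the group. IFI6 was at 10.5 in the fibroblasts, 3.0 in isolate 1 and 3.7 in isolate 2, which is 181-fold and 111-fold lower (log2 difference -7.15, SE 0.49, limma adjusted p = 0.182). IFI27 was at 10.0 in the fibroblasts, 3.1 in isolate 1 and 3.8 in isolate 2, which is 119-fold and 73.5-fold lower (log2 difference -6.55, SE 0.49, limma adjusted p = 0.184). On the fibroblast array both exceeded the background level, and on the GREL arrays both fell short of it, so that the folds are uncertain. Set against the background level in place of the isolates' own values, IFI6 was at least 24.6-fold (isolate 1) and 27.5-fold (isolate 2) higher in the fibroblasts, and IFI27 at least 17.4-fold and 19.4-fold. Against the 95th percentile of these other-organ genes, a higher level set by a few bright probe sets such as those of POMC and APOA1, these bounds were 6.59-fold and 7.11-fold for IFI6 and 4.66-fold and 5.03-fold for IFI27.

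**Figure D2:**
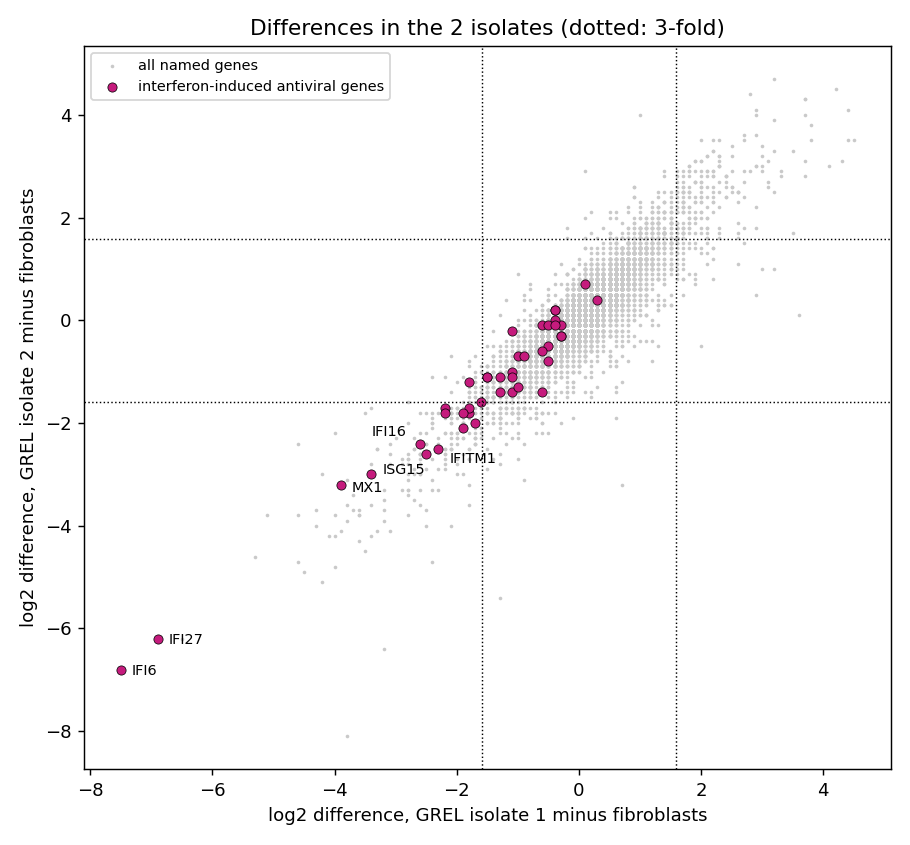
Log2 difference from the fibroblast array in GREL isolate 1 (horizontal axis) and GREL isolate 2 (vertical axis) for the 42 interferon-induced antiviral genes (filled points) and all 9155 named genes (grey points), with dotted lines at 3-fold. Both axes share the 1 fibroblast array, and 15 of the 42 genes lie in the lower left corner with IFI6 and IFI27 farthest out.

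The effectors that act on viruses directly were less uniform. MX1, a GTPase that traps viral nucleocapsids, read 6.2 in the fibroblasts, 2.3 in isolate 1 and 3.0 in isolate 2, a log2 difference of -3.55 (SE 0.49, limma adjusted p = 0.202), and against the background level it was at least 1.25-fold and 1.39-fold higher in the fibroblasts. Its neighbour and relative MX2 read 1.6 in the fibroblasts and 1.3 in both isolates. IFITM1, a membrane protein that hinders fusion of viruses with the cell, read 10.0 in the fibroblasts, 7.7 in isolate 1 and 7.5 in isolate 2, a log2 difference of -2.40 (SE 0.14, limma adjusted p = 0.182). IFITM1, unlike IFI6 and MX1, was above the background level on all 3 arrays, and it was 4.92-fold lower in isolate 1 and 5.66-fold lower in isolate 2. RSAD2 (viperin, an enzyme that makes a chain-terminating nucleotide), SAMD9 and PML (the organizer of nuclear bodies) had mean differences of -1.25, -1.30 and -1.15 and were lower in both isolates. IFIT5, which binds RNA, read 7.4 in the fibroblasts against 6.9 in both isolates, and its relative IFIT2 was at 2.1 and at 1.8 in both. TRIM21, a cytosolic antibody receptor, was slightly higher in the isolates, at 3.0 and 3.1 against 2.7. By any amount 8 of the 9 effectors were lower in both isolates, MX2 and IFIT2 by only 0.30, and 2 passed 3-fold (MX1 and IFITM1).

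IFI44, IFI44L and the guanylate-binding proteins are interferon-induced genes read here at low levels, all below the background level on every array. IFI44 read 3.9 in the fibroblasts, 1.4 in isolate 1 and 1.3 in isolate 2, a log2 difference of -2.55 (SE 0.07, limma adjusted p = 0.182). IFI44L, next to it in the genome, was at 3.8 and at 1.6 and 2.1. GBP5, a GTPase that acts in defence inside the cell, read 3.2 in the fibroblasts, 1.4 in isolate 1 and 1.5 in isolate 2, and GBP4 was at 2.8 and at 1.7 in both. All 4 were lower in both isolates, 3 of them by over 3-fold.

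The genes of ADP-ribosylation PARP9, DTX3L and PARP14 lie side by side in the genome (assembly ARS-UCD2.0). PARP14 read 6.2 in the fibroblasts and 4.6 in both isolates, a difference of -1.60 that exceeds the 3-fold limit of 1.58 by less than the rounding step. PARP9, which works as a pair with the ubiquitin ligase DTX3L, read 5.0 in the fibroblasts, 3.2 in isolate 1 and 3.8 in isolate 2, past 3-fold in isolate 1 only. DTX3L was at 5.6 and at 4.6 and 4.9, and PARP12 at 6.2 and at 5.1 and 6.0. All 4 were lower in both isolates, with the largest gap between isolates of any of the 42 genes in PARP12 (0.90).

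Of the other induced genes, XAF1, an antagonist of the apoptosis inhibitor XIAP, read 4.4 in the fibroblasts, 2.2 in isolate 1 and 2.6 in isolate 2. LGALS3BP, a secreted glycoprotein, read 8.3 in the fibroblasts, 6.4 in isolate 1 and 6.5 in isolate 2, a log2 difference of -1.85 (SE 0.07, limma adjusted p = 0.182), and lay above the background level on all 3 arrays. IFI30, a thiol reductase of lysosomes, was at 8.3 and at 7.2 and 7.3, also above the background level throughout. EPSTI1 was at 6.3 and at 5.4 and 5.6. All 4 were lower in both isolates and 2 of them by over 3-fold.

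With every value below the background level set to that level, a setting chosen after the data were seen, 4 of the 42 genes were still over 3-fold lower in both isolates. These were IFI6, IFI27, IFITM1 and LGALS3BP, beside 0.732% of all named genes under the same setting. At a 4-fold limit 7 of the 42 genes were lower (1.32% of all named genes), and at a 2-fold limit 22 were (4.78%).

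The rest of the interferon pathway was compared through 68 further measured genes, which were listed by function. Over 3-fold lower in both isolates were 4 of them (5.88%) and over 3-fold higher were 2, beside 2.38% in each direction over all named genes, and the median difference was -0.10. Interferon genes with a probe set gave low values on all 3 arrays: IFNB1 was at 0.8 in the fibroblasts, 0.8 in isolate 1 and 0.9 in isolate 2, IFNAC at 1.8, 2.0 and 1.8, IFNT2 at 2.3, 1.6 and 2.0, and IFNG at 2.1, 1.9 and 1.8. Of the 6 ligand and receptor genes 0 passed 3-fold, and the same held for the 10 pattern receptors and adaptors and for the 8 negative regulators. The median differences of these lists were -0.10, -0.02 and -0.25. JAK1, the kinase of IFNAR2, was at 8.1 in the fibroblasts, 7.8 in isolate 1 and 7.3 in isolate 2, and STAT3 at 8.2 and at 7.4 and 7.2. Of the 9 kinases and transcription factors 1 was over 3-fold higher, NFKBIA, the inhibitor of NF-kappa-B, with readings of 4.5 in the fibroblasts, 6.8 in isolate 1 and 6.1 in isolate 2.

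Among 35 other genes known to respond to interferon, 4 were over 3-fold lower and 1 was over 3-fold higher, and the median difference was -0.15. CH25H, which makes the antiviral sterol 25-hydroxycholesterol, read 5.5 in the fibroblasts, 1.7 in isolate 1 and 1.6 in isolate 2. ICAM1, an adhesion molecule, was at 7.0 and at 4.2 and 3.7, RTP4 at 4.1 and at 1.3 and 1.4, and STAT4 at 4.3 and at 1.9 and 2.3. The chemokine CXCL10 lay the other way, with readings of 4.4 in the fibroblasts, 7.4 in isolate 1 and 7.6 in isolate 2. Among those that did not pass 3-fold, B2M, the light chain of class I molecules, was at 10.8 and at 9.9 in both isolates. The immunoproteasome subunit PSMB8 was at 5.2 and at 4.5 and 4.2, PSMB9 at 4.1 and at 4.6 and 5.0, and PSMB10 at 5.8 and at 4.4 and 4.7. None of the 68 passed limma over all probe sets.

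**Figure D3:**
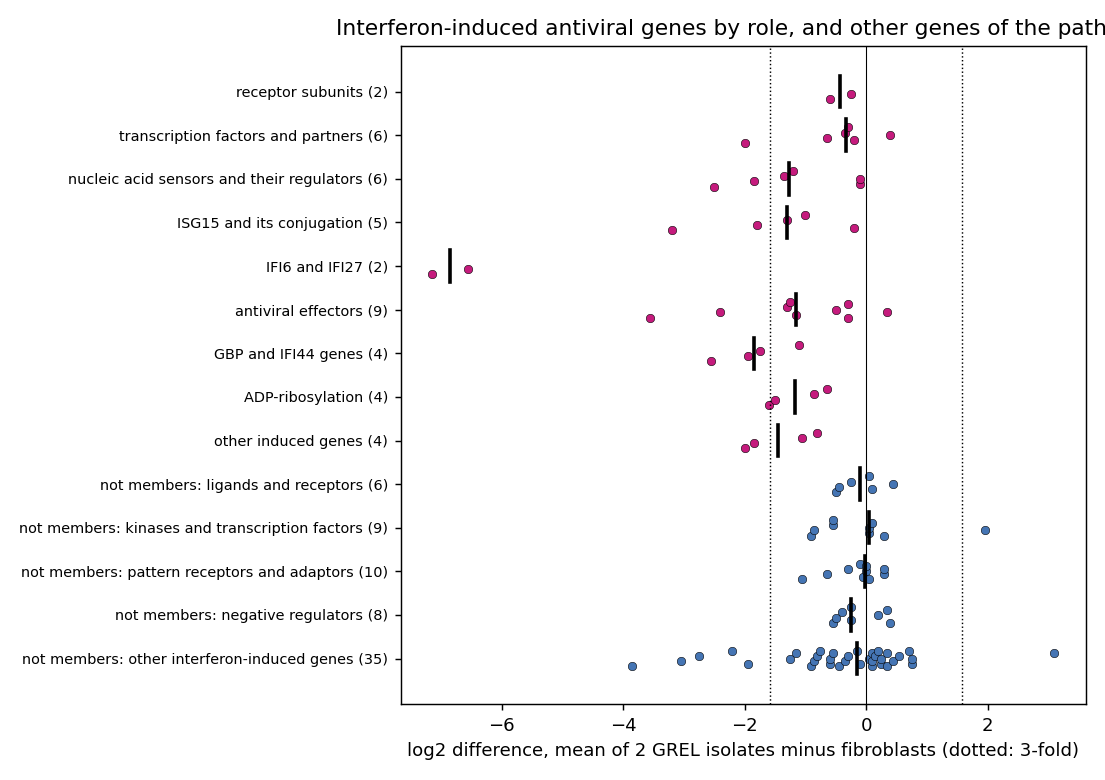
Log2 difference, mean of both GREL isolates minus fibroblasts (horizontal axis), of each gene (points), by role for the 42 interferon-induced antiviral genes (upper 9 lists) and for 68 other genes of the pathway (lower 5 lists), where brackets give the number of genes, vertical bars mark list medians and dotted lines stand at 3-fold. The medians of the upper lists run from -6.85 for IFI6 and IFI27 to -0.33 for the transcription factors and partners, and that of the 35 other interferon-induced genes is -0.15.

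The array held 61 probe sets for the 42 genes, of which 19 were over 3-fold lower in both isolates (31.1%, beside 1.74% of all probe sets) and 0 over 3-fold higher. For 10 genes there was more than 1 probe set. In IFI44 all 4 probe sets had mean differences between -2.55 and -1.70, and in LGALS3BP the 2 probe sets were at -1.85 and -1.80. USP18 was lower at each of 4 probe sets, with mean differences from -1.45 to -0.20. In IFITM1 the second probe set read 2.4 in the fibroblasts, 1.8 in isolate 1 and 2.0 in isolate 2, far from the 10.0, 7.7 and 7.5 of the first. The second probe set of ZNFX1 read 1.4, 1.3 and 1.4, and those of GBP5 had mean differences from -2.15 to -0.30. When the probe sets of a gene were averaged, IFITM1 (-1.45), ZNFX1 (-0.95) and GBP5 (-1.25) were no longer past 3-fold and 12 of the 42 genes were. Directions also differed between the probe sets of IRF7 and of PARP12, genes that passed 3-fold at none. The probe sets used for GBP5, USP18 and PARP12 are of a type (suffix s_at) that can match transcripts of more than 1 gene.

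**Figure D4:**
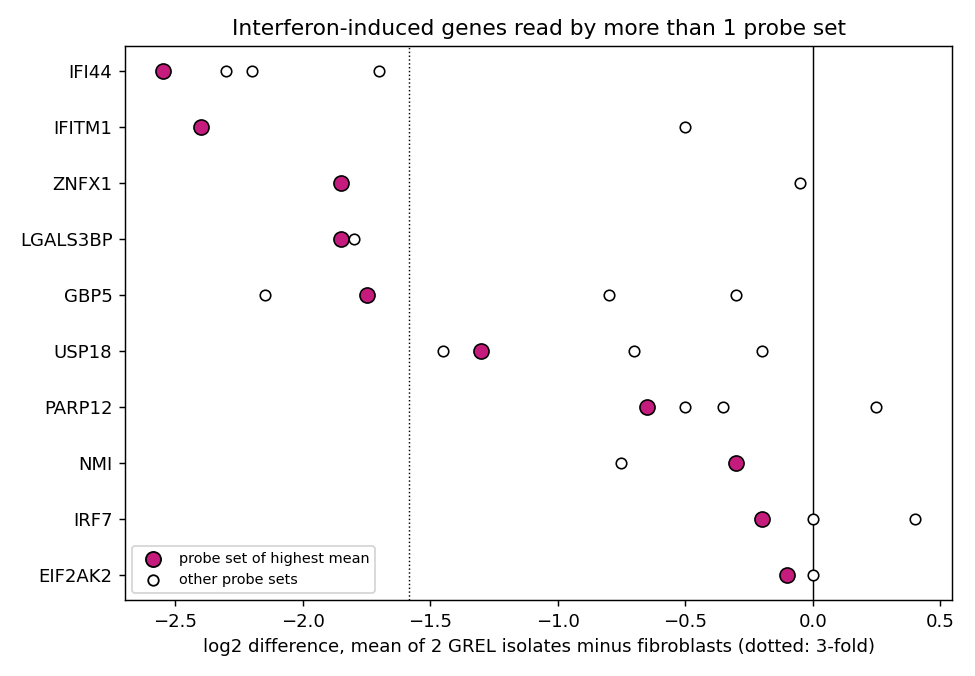
Mean log2 difference, GREL isolates minus fibroblasts (horizontal axis), at each probe set of the 10 interferon-induced genes read by more than 1 probe set, with the probe set of highest mean filled and the others open. The dotted line marks 3-fold. All 4 probe sets of IFI44 lie past it, whereas the second probe sets of IFITM1 (-0.50) and ZNFX1 (-0.05) do not.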

How the data were processed

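Total RNA of 2 GREL isolates and of 1 adult ovarian fibroblast culture was measured, 1 array each. The authors deposited log2 values that had been background-subtracted by RMA and quantile normalized. The submitters' processing notes name Partek 6.5. The values are rounded to steps of 0.1 and have no detection calls, and all 3 columns were used. No genome build is given in the sources used here, so no coordinates are printed, and the current bovine gene table (assembly ARS-UCD2.0) served only for names and neighbours. The table held 24128 probe sets, from which 112 array controls were removed. A single symbol from the platform annotation, which can be old, was available for 13292, several symbols for 86 and none for 10638. The gene identifiers of all 42 genes were found in the bovine gene table with the same symbol.

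Python 3.11.15 (pandas 2.3.3, numpy 2.4.6), R 4.3.3 and limma 3.58.1 (lmFit, eBayes, 1 residual degree of freedom, all probe sets, adjusted p under 0.05) were used, and the fit was tested on simulated data. The fibroblast culture was assumed to vary like the isolates. Both isolates have an identical rounded value in 3513 probe sets, where their spread is 0. The study describes the isolates as taken from different fetuses, and p-values measure the spread between these 2 cultures only. The number of arrays limits the precision. The 42 genes, their roles and the pathway lists (ligands and receptors, kinases and transcription factors, pattern receptors and adaptors, negative regulators, other interferon-induced genes), the marker lists and the genes of other organs were chosen with earlier results of these data known. Named with every value were genes over 3-fold different in both isolates, the receptor, the STAT and IRF factors and the sensors. Others are examples of their role. The pathway genes named were picked after their values were seen. Alternatives were the mean over probe sets, median-centred arrays, quantile normalization applied again, a filter on dim genes, other folds, other background levels, other limma settings, the methods' test and leaving out either isolate.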

Additional observations from a re-analysis of the deposited data

How the results depend on the processing

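The count of interferon-induced genes over 3-fold lower (15 of 42) was 12 with probe sets averaged and 15 with centred or re-quantiled arrays. Leaving out 1 isolate can only add to this count, and it was then 15 to 16, the same 15 genes plus PARP9 without isolate 2. It was 7 at 4-fold, 12 of the 26 genes above the median of all probe sets (2.99% of all such genes), and 4 with dim values set to the background level, a setting added after the data were seen. The count over 3-fold higher was 0 in each. The median difference of -1.18 became -1.23 with centred arrays, -1.40 with the dim filter, -1.08 with averaged probe sets, -1.12 without IFI6 and IFI27 (added after the data were seen) and -1.10 without either isolate. Over all genes 218 were over 3-fold lower, 438 over 2-fold, 121 over 4-fold, 67 with dim values set to the background level and 251 to 331 without isolate 2 or 1. Of the other pathway genes 4 were lower, 7 at 2-fold, 1 with the dim filter (42 genes) and 4 to 5 without either isolate. Limma called 0 of the 42 genes, and 5 with a robust prior (IFIT5, UBA7, PARP14, GBP4 and IFNAR2). In all 5, and in all 1189 probe sets called with that prior (618 lower, 571 higher), the isolates round to the same value, so these calls rest on a spread of 0. Above the background level were 17 genes on the fibroblast array and 6 on both GREL arrays, which became 5 and 0 with the 95th percentile and 33 and 21 with the array median as the level. Of 126 differences of single genes under alternatives 116 moved by no more than the spread between isolates and 10 moved by more. Many of them could not move further, such as those without an isolate and probe-set means of genes with 1 probe set. The count is therefore no check of robustness. EIF2AK2 changed sign, from -0.10 to 0.20 without isolate 1, and so did IRF7, from -0.20 to 0.07 with averaged probe sets. No paired analysis was possible because the fibroblasts have 1 array and share no numbered replicates with the isolates. Leaving out an isolate leaves no residual degree of freedom, so limma was not run there. Dim signal limits the sizes of most differences.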

Other observations

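The median gap between the isolates was 0.3 log2 units over the 42 interferon-induced genes and 0.2 over all named genes. A gap of 1 log2 unit or more was seen in 0 of the 42 and in 274 of the 9155 named genes (2.99%). Isolate 2 was higher than isolate 1 in 26 of the 42, lower in 9 and equal in 7, and over all named genes it was higher in 51.4%. IFI6, IFI27 and MX1 were each 0.70 higher in isolate 2, with values below the background level in both isolates. HERC5 lay the other way, 0.80 lower in isolate 2. Across the 42 genes (genes share arrays and are no replicates) the Pearson correlation of levels was 0.983 between the isolates, 0.720 between the fibroblasts and isolate 1 and 0.750 between the fibroblasts and isolate 2. Over all probe sets it was 0.984, 0.950 and 0.934.

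Genes that lie next to each other in the genome did not always differ alike. MX1 was at a mean difference of -3.55 and its neighbour MX2 at -0.30. HERC5 differed from the fibroblasts by -0.60 in isolate 1 and -1.40 in isolate 2, and HERC6 by -0.30 and -0.10. IFI44 and IFI44L were at -2.55 and -1.95, and PARP9, DTX3L and PARP14 at -1.50, -0.85 and -1.60. All 3 arrays read MX2, HERC5 and HERC6 under the background level, where the sizes of differences are uncertain.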
